A study of Mus musculus with 6 samples.

Results

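The genes described here are 8 transcription factors that drive the epithelial to mesenchymal transition (EMT): Zeb1, Zeb2, Snai1, Snai2, Snai3, Twist1, Twist2 and Prrx1. They were followed in 393P, a mouse lung cancer cell line. Every probe set that the platform annotation assigns to 1 of these genes alone was taken, which gave 22 of the 45101 probe sets in the deposited table and 8 of the 18193 genes with a probe set of their own. Zeb1 was read by 4 probe sets, Zeb2 by 5, Prrx1 by 6, Snai2 and Snai3 by 2 each, and Snai1, Twist1 and Twist2 by 1 each. There were 3 Zeb1 vector arrays, from 393P cells transfected for stable and constitutive Zeb1 expression, and 3 control vector arrays, from the same line carrying pcDNA without Zeb1. Each array is 1 culture. How many separate transfections or clones they came from was not stated, so the p-values measure the spread between cultures. One label field speaks of Zeb1 induction, while the protocol calls the expression constitutive.

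During EMT, epithelial cells lose their junctions and polarity and take on the shape and motility of mesenchymal cells. Zeb proteins carry zinc-finger clusters on both sides of a homeodomain, Snail proteins (Snai1 to Snai3) carry an N-terminal SNAG domain and C-terminal zinc fingers, and both families bind E-box DNA of the CACCTG type and recruit corepressors to epithelial genes such as Cdh1, which encodes E-cadherin. Twist1 and Twist2 are basic helix-loop-helix (bHLH) factors that bind E-boxes as dimers with E proteins, and Prrx1 is a homeobox factor of limb and craniofacial mesenchyme. Zeb1 and Zeb2 are also known targets of the miR-200 family, whose genes Zeb1 represses in turn.

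The trimmed mean of the linear signals was 500 on every array, and the median log2 signal was 6.26 to 6.44 on Zeb1 vector arrays and 6.15 to 6.42 on control vector arrays. Of the markers of lung adenocarcinoma epithelium, 5 of 10 lay above the background mark (defined in the next paragraph) on all 3 Zeb1 vector arrays and 7 of 10 on all 3 control vector arrays, with a summed linear signal of 57989 to 62246 and 99496 to 105553. The markers did not move alike: Epcam, Cdh1 and Cldn4 had log2 changes of -7.05, -4.01 and -8.03. Those of Krt8, Krt18, Krt19 and Sftpb were -0.16, 0.03, -0.04 and 0.36. The alveolar markers Nkx2-1, Sftpc and Napsa lay below the mark on all 6 arrays. Since Prrx1 and Twist genes are also markers of fibroblasts, fibroblast markers were read beside them: 7 of 8 lay below the mark on all 6 arrays (Col1a1, Col3a1, Pdgfra, Dcn, Lum, Thy1 and Fap), and their summed linear signal was 377 to 545 on Zeb1 vector arrays and 372 to 593 on control vector arrays. Of leukocyte and macrophage markers 3 of 6 lay above the mark in both groups, with Ptprc, Adgre1 and Itgam below it on all 6 arrays and sums of 4903 to 5323 and 1370 to 1578 in Zeb1 vector and control vector cells. Cd14, a lipopolysaccharide co-receptor of macrophages and some epithelia, had a log2 change of 2.29 (adjusted p = 5.32e-08). Cd68 and Csf1r, which also lay above the mark in both groups, did not rise with it. Cd68 stood at -0.10 (adjusted p = 0.632) and Csf1r at -0.25 (adjusted p = 0.237), neither of them a call. The higher summed signal in Zeb1 vector cells was thus not shared by Cd68 and Csf1r. The part of these cell types in the results was not tested beyond these values.

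A signal is read here against 3 marks. The floor is the 25th percentile of the 6 arrays' pooled values, log2 4.45 or a linear signal of 21.8, and lower signals were raised to it before testing. The array's own median decided which probe sets were tested: at least 3 of the 6 arrays had to reach it. The background mark is the 95th percentile, on each array, of 80 probe sets for olfactory and vomeronasal receptors, genes best known from sensory neurons of the nose, and it lay at log2 6.87 to 7.13 on Zeb1 vector arrays and 6.52 to 7.15 on control vector arrays. The mark is severe: 51.0% to 53.1% of all probe sets with 1 gene symbol lay below it on the Zeb1 vector arrays and 48.3% to 53.3% on the control vector arrays. Of the receptor probe sets, 14 passed the filter, and 0 of them were called higher and 0 lower. Where a group lay below the mark on all 3 arrays, the fold is given as a bound, the other group's mean over the mark, and this bound moves with the mark.

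Zeb1, Zeb2, Snai2, Twist2 and Prrx1 were higher in Zeb1 vector cells, and 11 of their 13 rising probe sets, all but those of Snai2, were near background on all 3 control vector arrays. Of the 22 probe sets 16 were tested, and 13 rose, 1 fell and 2 were not called. The fall belongs to Snai3, whereas Snai1 was not called and Twist1 was below the filter. Over all 20594 tested probe sets 46.1% were called, 24.5% higher and 21.6% lower. These shares are not a like background for the family, since 9 of the 13 risers lay below the median on all 3 control vector arrays and so passed the filter through the Zeb1 vector arrays alone. Among the 2073 tested probe sets that lay below the background mark on all 3 control vector arrays, 41.7% were called higher. Counted by the mark, 17 of the 22 probe sets lay below it on all 3 control vector arrays, 9 on all 3 Zeb1 vector arrays and 6 on all 6 arrays. The groups did not overlap in 14 of the 16 tested probe sets, where the share over all tested probe sets was 55.4%. This share is not a like background either, since the same 9 risers passed the filter through the Zeb1 vector arrays alone. For these, the filter itself nearly fixed that the groups would be apart. Of all 22, the groups did not overlap in 16, where the share was 39.0% over all probe sets with 1 symbol.

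**Figure D1:**
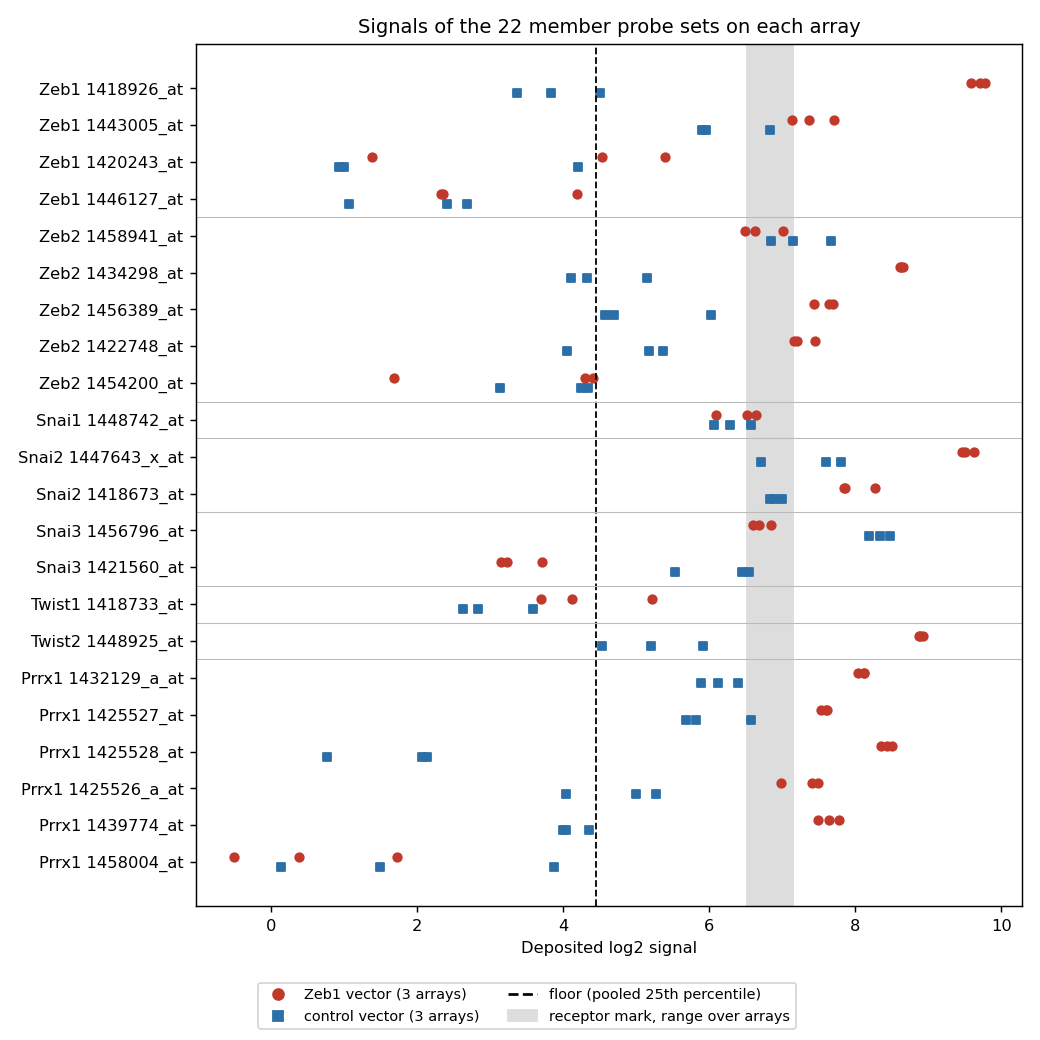
Deposited log2 signal (horizontal axis) of each of the 22 probe sets (rows, grouped by gene), with the 3 Zeb1 vector arrays as circles above the 3 control vector arrays as squares. The dashed line is the floor at log2 4.45 and the grey band spans the background mark over the 6 arrays, and 17 rows have all 3 control vector squares below their own array's mark.

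Stretches of 250 bases directly before the annotated transcription starts of 3 genes that rose and of Snai1, which was not called, are shown because they are the DNA on which Zeb and Snail proteins could be read in these genes. They are from RefSeq for GRCm38.p6, 5′ to 3′ on the gene's strand, and 5 of the 8 genes were matched by symbol, with 8 starts in all. Capitals mark CACCT or its reverse complement AGGTG, the core shared by Zeb and Snail sites, and the E-box CACCTG or CAGGTG, each of which overlaps 1 such core.
Zeb2, most upstream of 4 starts, chr2:45117443-45117692, minus strand: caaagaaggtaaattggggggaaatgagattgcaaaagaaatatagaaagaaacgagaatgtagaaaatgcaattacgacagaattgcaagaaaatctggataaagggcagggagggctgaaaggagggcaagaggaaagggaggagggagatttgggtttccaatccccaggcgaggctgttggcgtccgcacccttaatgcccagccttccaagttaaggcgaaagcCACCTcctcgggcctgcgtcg
Twist2, chr1:91801211-91801460, plus strand: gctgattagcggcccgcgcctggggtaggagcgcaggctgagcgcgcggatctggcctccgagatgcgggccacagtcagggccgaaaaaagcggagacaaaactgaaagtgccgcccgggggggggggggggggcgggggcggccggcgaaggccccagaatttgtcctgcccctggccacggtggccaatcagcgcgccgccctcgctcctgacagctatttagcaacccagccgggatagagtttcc
Prrx1, chr1:163313651-163313900, minus strand: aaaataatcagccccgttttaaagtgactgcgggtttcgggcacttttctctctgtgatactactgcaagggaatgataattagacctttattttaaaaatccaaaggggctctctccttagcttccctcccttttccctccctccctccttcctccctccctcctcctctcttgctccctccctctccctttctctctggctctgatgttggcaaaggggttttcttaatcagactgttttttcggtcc
Snai1, chr2:167537945-167538194, plus strand: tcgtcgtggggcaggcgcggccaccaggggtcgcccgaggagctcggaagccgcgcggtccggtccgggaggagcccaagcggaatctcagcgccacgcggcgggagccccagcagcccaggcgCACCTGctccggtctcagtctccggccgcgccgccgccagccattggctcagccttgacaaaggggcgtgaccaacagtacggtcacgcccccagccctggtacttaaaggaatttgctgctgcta
The 5-base core was found in 5 of the 8 windows and in 46.0% of all 32851 windows in the table, and the 6-base E-box in 1 of 8 and in 17.2%. Several of the 8 windows belong to Zeb2 and some of those share bases, so the windows are not separate cases. The window of Twist1 holds 1 core, and Zeb1, Snai2 and Snai3 had no window. The 1 E-box starts 126 bases before the start of Snai1. The core of Zeb2 starts 21 bases before its most upstream start, and the windows of Twist2 and Prrx1 hold neither. A match describes the letters of a window and is not a binding site.

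Zeb1, the gene carried by the vector, checked the labels on 2 of its 4 probe sets. On 1418926_at the log2 signals were 9.71, 9.59 and 9.78 in Zeb1 vector cells, against 3.36, 3.84 and 4.50 in control vector cells. All 3 Zeb1 vector arrays stood above all 3 control vector arrays by at least 5.08, and the signal outranked 82.3% to 83.6% of the array's probe sets in Zeb1 vector cells and 16.9% to 24.5% in control vector cells. The log2 change was 5.23 (SE 0.177, limma adjusted p = 2.3e-08), and against the background mark the gene was at least 7.35-fold higher. On 1443005_at the signals were 7.37, 7.71 and 7.13 in Zeb1 vector cells, against 5.90, 5.95 and 6.84 in control vector cells. The groups were 0.30 apart, the change was 1.17 (SE 0.296, adjusted p = 0.00895), and with no filter the call was lost (adjusted p = 0.0697). All 3 control vector arrays lay below the background mark, and against it this probe set was at least 1.51-fold higher.

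The other Zeb1 probe sets were at background throughout. Signals of 1420243_at were 1.38, 5.40 and 4.54 in Zeb1 vector cells and 4.20, 0.93 and 1.00 in control vector cells. Those of 1446127_at were 2.32, 2.35 and 4.19 in Zeb1 vector cells and 2.41, 1.07 and 2.68 in control vector cells. The groups overlapped on both, neither was tested, and with no filter the adjusted p was 0.515 and 1. The positions of these probe sets on the transcript, and the extent of the Zeb1 insert, were not known.

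Zeb2, the paralogue of Zeb1, rose on 3 of its 4 tested probe sets. On 1434298_at the log2 signals were 8.63, 8.62 and 8.66 in Zeb1 vector cells, against 4.10, 5.15 and 4.33 in control vector cells. The Zeb1 vector arrays lay within 0.05 of each other and 3.46 above the highest control vector array. The log2 change was 3.95 (SE 0.255, adjusted p = 1.59e-06) and the gene was at least 3.53-fold higher. Control vector arrays were near background on the other risers too. On 1456389_at the signals were 7.70, 7.44 and 7.64 in Zeb1 vector cells, against 4.70, 4.58 and 6.03 in control vector cells, a change of 2.49 (SE 0.383, adjusted p = 0.000504). On 1422748_at they were 7.20, 7.16 and 7.45 in Zeb1 vector cells, against 4.05, 5.17 and 5.36 in control vector cells, a change of 2.27 (SE 0.315, adjusted p = 0.000258). Against the background mark these were at least 1.72-fold and 1.37-fold higher, and on 1422748_at the Zeb1 vector arrays cleared the background mark by as little as 0.06.

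The brightest Zeb2 probe set on average, 1458941_at, went the other way without being called. It had 6.62, 7.00 and 6.49 in Zeb1 vector cells and 6.85, 7.15 and 7.67 in control vector cells, and the groups overlapped. The change was -0.52 (95% interval -1.10 to 0.06, adjusted p = 0.134), and under quantile normalization it was called lower (-0.62, adjusted p = 0.046). It lay below the background mark on all 3 Zeb1 vector arrays and above it on all 3 control vector arrays. The fifth, 1454200_at, was under the floor on every array, with 4.30, 1.68 and 4.41 in Zeb1 vector cells and 3.14, 4.24 and 4.34 in control vector cells.

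Of the Snail family, Snai2 (Slug) rose, Snai3 fell and Snai1 (Snail) was not called. Snai2 was the member best measured in both groups, with 1 control vector array below the background mark on each probe set. On 1447643_x_at the log2 signals were 9.62, 9.46 and 9.50 in Zeb1 vector cells, against 7.60, 7.81 and 6.70 in control vector cells. The groups were 1.65 apart, and the change was 2.16 (SE 0.25, adjusted p = 7.9e-05), a 4.47-fold difference. The suffix _x_at marks probes that can also match other transcripts, so part of this signal could come from elsewhere. On 1418673_at, which carries no such suffix, the signals were 8.27, 7.85 and 7.85 in Zeb1 vector cells, against 7.00, 6.83 and 6.91 in control vector cells, and the change was 1.08 (SE 0.18, adjusted p = 0.000826), a 2.11-fold difference.

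Snai3, the least studied Snail protein, was the member that fell. On 1456796_at the log2 signals were 6.69, 6.60 and 6.84 in Zeb1 vector cells, against 8.33, 8.19 and 8.48 in control vector cells. No array of one group came within 1.35 of the other. The change was -1.62 (SE 0.165, adjusted p = 3.34e-05), and Snai3 was at least 2.46-fold lower, since all 3 Zeb1 vector arrays lay below the background mark. Its second probe set, 1421560_at, had 3.15, 3.71 and 3.23 in Zeb1 vector cells, all under the floor, against 6.55, 6.44 and 5.53 in control vector cells. It reached the array median on 2 arrays and was not tested. Its change after the floor was -1.73, with an adjusted p of 0.0161 when no filter was used.

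Snai1 lay below the background mark on all 6 arrays. Its 1 probe set, 1448742_at, had 6.09, 6.64 and 6.51 in Zeb1 vector cells and 6.29, 6.07 and 6.57 in control vector cells. The groups overlapped over most of their range, and the change was 0.11 (95% interval -0.50 to 0.71, adjusted p = 0.786). A change of a size within that interval is compatible with these values.

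The bHLH factors differed in what could be read. Twist2 was near background in control vector cells and well above it in Zeb1 vector cells. Its probe set 1448925_at had log2 signals of 8.88, 8.89 and 8.94 in Zeb1 vector cells, against 4.54, 5.20 and 5.91 in control vector cells. The groups were 2.96 apart. The change was 3.68 (SE 0.313, adjusted p = 1.04e-05) and Twist2 was at least 4.25-fold higher.

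Twist1 stayed below the background mark on all 6 arrays. Its probe set 1418733_at had 3.69, 5.21 and 4.12 in Zeb1 vector cells and 2.83, 3.58 and 2.63 in control vector cells. The groups did not overlap, but they were 0.10 apart, 2 of the 3 Zeb1 vector arrays and all 3 control vector arrays were under the floor, and the probe set was not tested. With no filter its adjusted p was 0.55.

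Prrx1 rose on all 5 of its tested probe sets. On 1425528_at the log2 signals were 8.36, 8.51 and 8.44 in Zeb1 vector cells, against 2.14, 2.07 and 0.77 in control vector cells. With control vector cells under the floor on all 3 arrays, the change was 3.99 (SE 0.222, adjusted p = 5.96e-07), or 6.78 on the signals without a floor, and the gene was at least 3.08-fold higher than the background mark. On 1432129_a_at, whose suffix marks probes shared by transcripts of 1 gene, the signals were 8.12, 8.12 and 8.04 in Zeb1 vector cells, against 5.89, 6.12 and 6.40 in control vector cells, and the change was 1.95 (SE 0.197, adjusted p = 3.22e-05).

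The remaining tested Prrx1 probe sets moved the same way at lower signals. On 1439774_at the signals were 7.78, 7.49 and 7.64 in Zeb1 vector cells, against 4.04, 3.99 and 4.35 in control vector cells, a change of 3.19 (SE 0.264, adjusted p = 8.74e-06). On 1425526_a_at they were 6.98, 7.40 and 7.49 in Zeb1 vector cells, against 5.0, 4.04 and 5.28 in control vector cells, a change of 2.38 (SE 0.316, adjusted p = 0.000197), and 1 Zeb1 vector array lay below the background mark. On 1425527_at they were 7.59, 7.53 and 7.61 in Zeb1 vector cells, against 5.68, 5.82 and 6.57 in control vector cells, a change of 1.55 (SE 0.264, adjusted p = 0.000934). Against the background mark, 1432129_a_at was at least 2.42-fold higher, 1439774_at 1.77-fold, 1425527_at 1.70-fold and 1425526_a_at 1.39-fold. In all 5 the lowest Zeb1 vector array exceeded the highest control vector array. The sixth, 1458004_at, was under the floor on every array, with -0.51, 0.38 and 1.72 in Zeb1 vector cells and 1.49, 0.14 and 3.87 in control vector cells.

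The size of the rises depended on where background was set, and their direction did not. With the floor at the pooled 50th percentile (log2 6.32) the changes were 3.37 for Zeb1 1418926_at, 2.31 for Zeb2 1434298_at, 2.58 for Twist2 and 2.11 for Prrx1 1425528_at. The same floor left the changes of both Snai2 probe sets at 2.16 and 1.08 and that of Snai3 1456796_at at -1.62, because no signal of these 3 lay under it. All 13 risers and the fall stayed called with this higher floor and also without any floor.

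**Figure D2:**
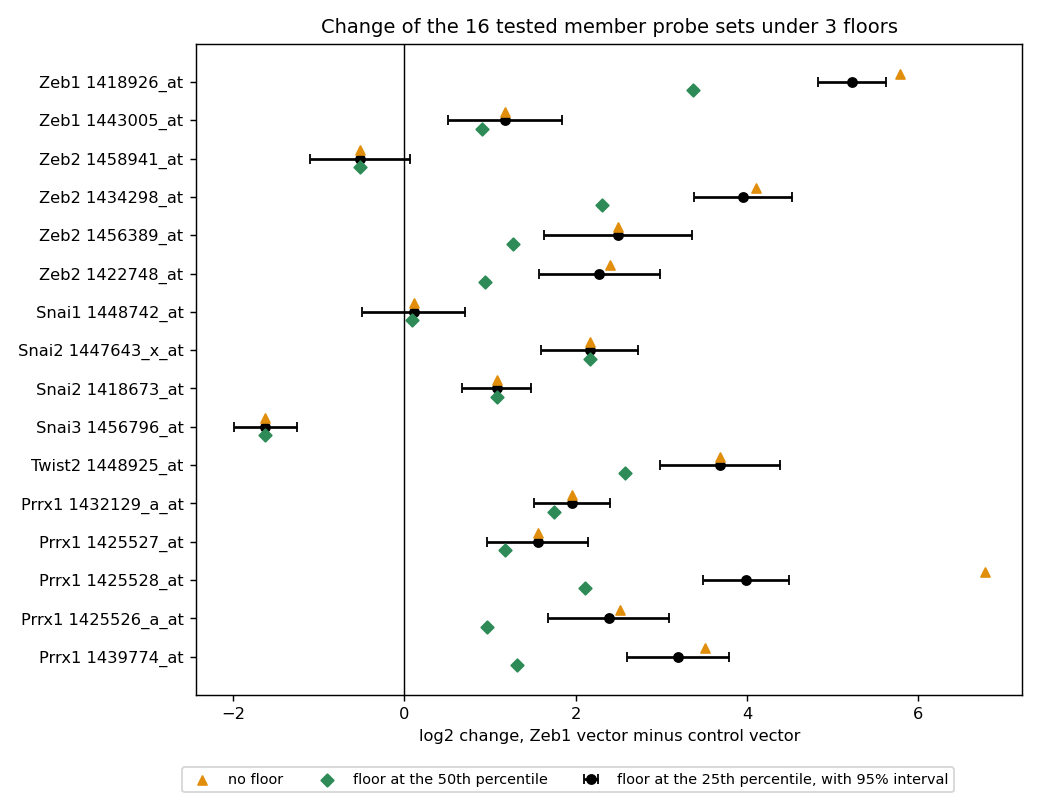
Log2 change, Zeb1 vector minus control vector (horizontal axis), of the 16 tested probe sets, with the 25th percentile floor (circles, 95% interval of the limma fit), no floor (triangles) and the 50th percentile floor (diamonds). The marks coincide for Snai2 and for the tested Snai3 probe set and part for Zeb1 1418926_at and Prrx1 1425528_at, at 5.23, 5.79 and 3.37 and at 3.99, 6.78 and 2.11.

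Probe sets of 1 gene spread widely in this family. The largest minus the smallest log2 change was 4.47 among the 4 tested Zeb2 probe sets, 4.05 between the 2 tested of Zeb1, 2.43 among the 5 of Prrx1 and 1.08 between those of Snai2. Over the 5237 genes with several tested probe sets the median spread was 0.35, and 0.134% of them had a larger one than Zeb2, 0.267% than Zeb1, 1.51% than Prrx1 and 10.6% than Snai2. Genes that change more, and those with more probe sets, have more room to spread. The median log2 change over the 16 tested probe sets was 2.22, and over all tested probe sets it was 0.02, with the filter's part in the first of these as described above.

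**Figure D3:**
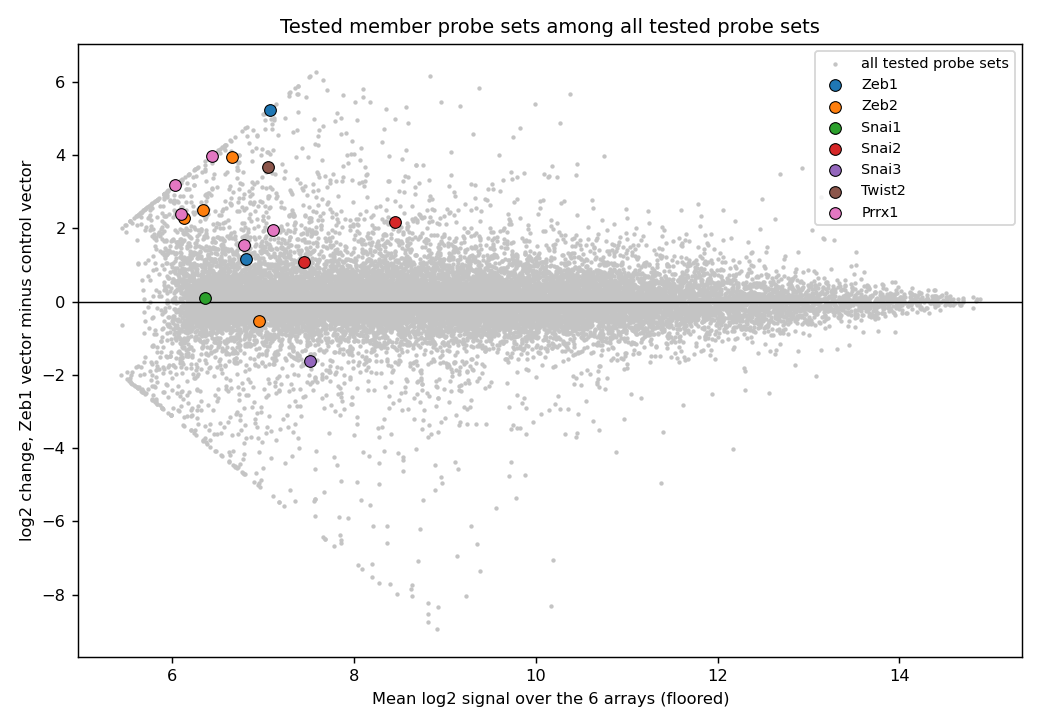
Log2 change, Zeb1 vector minus control vector, against mean floored log2 signal over the 6 arrays, for all 20594 tested probe sets (grey) and the 16 tested probe sets of the family (coloured by gene). Risers from the floor lie on the upper left edge, where the control vector signal sits at log2 4.45, and Snai2 1447643_x_at lies furthest right in the family.

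For each member with a tested probe set, the 3 genes with the closest profile over the 6 arrays were found by the root mean square difference of log2 signals, each centred on its own mean and taken from the gene's brightest tested probe set. Nearest to Zeb1 were G0s2, Cldn2 and Lgals3bp, at 0.08, 0.10 and 0.16, with log2 changes of 5.13, 5.38 and 5.32. Zeb1 was at the floor on 2 control vector arrays and G0s2 on all 3, so the likeness of this pair and the change of G0s2 depend on the floor. One control vector array was also at the floor for each of Itih2, Msrb2, Ndp and Soga3, named next. Those nearest to Twist2 were Itih2, Msrb2 and Ndp, at 0.12, 0.16 and 0.19. For Snai2 (1447643_x_at) they were Soga3, Fam20c and Bmper, at 0.13, 0.14 and 0.18. The other Snai2 probe set, 1418673_at, had a smaller change of 1.08. Prrx1 (1432129_a_at) was closest to Pam, Galnt12 and Prdm8, at 0.07, 0.07 and 0.08. Snai3 was closest to the ephrin ligand Efna1, Ggact and the triglyceride enzyme Dgat2, at 0.08, 0.08 and 0.10, with changes of -1.63, -1.62 and -1.65. The neighbours of Snai1 (Taf1, Yipf6 and Htr1d) and of the brightest Zeb2 probe set (Psors1c2, 2210010C04Rik and Tspan18) were likewise not called. With 2 groups of 3 arrays, likeness rests on the size of 1 step and on the noise within groups.

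The genes around the family are given next by their brightest tested probe set, in 6 lists. Over the 11893 tested genes 49.3% were called, 25.8% higher and 23.5% lower, with the values below from the same limma fit, adjusted over all tested probe sets. These shares are not a like background for genes that passed the filter through the Zeb1 vector or the control vector arrays alone. For such genes the filter nearly fixed the direction. Log2 changes and list medians are on floored signals, so a change with arrays at the floor depends on the floor, and the bound against the background mark stands beside it where a named gene's lower group lay below the mark on all 3 arrays.

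The dimer partners of Twist and the Id proteins, which sequester those partners, rose or were not called: 6 of 9 tested genes rose and 0 fell, with a median log2 change of 1.28. This count and median pool the partners with their inhibitors. All the Id genes rose, whereas not every E protein was called. Tcf4 (E2-2), an E protein, was 10.14 ± 0.159 in Zeb1 vector cells and 7.63 ± 0.053 in control vector cells (SD, n = 3 each), a change of 2.51 (SE 0.119, adjusted p = 1.97e-07), and its 5 other tested probe sets changed by 1.34 to 2.51. Id3 rose by 3.42 and Id1 by 1.97 (adjusted p = 2.3e-08 and 1.88e-08).

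Other transcription factors linked to EMT went both ways. Of 15 tested, 5 rose, 3 fell and 7 were not called (median 0.20). Prrx2, the paralogue of Prrx1, was 9.82 ± 0.077 in Zeb1 vector cells and 7.20 ± 0.150 in control vector cells (SD, n = 3 each), a change of 2.62 (SE 0.127, adjusted p = 2.29e-07). The forkhead factor Foxf2 had a log2 change of 4.01 (adjusted p = 7.74e-07), with 1 control vector array at the floor, and was at least 3.81-fold higher. The chromatin protein Hmga2 rose by 1.25 (adjusted p = 2.22e-07). Mecom (Evi1), a zinc-finger regulator, fell by 3.68 (adjusted p = 1.03e-08), while its other tested probe set had a change of 0.17. Glis2 fell by 1.20 and Sox4 by 0.36, and other Sox4 probe sets ranged from -1.16 to 0.41.

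Corepressors and cofactors of Zeb and Snail proteins went both ways. Of 23 tested genes 7 rose, 6 fell and 10 were not called, and the median was -0.10. Ctbp1 and Ctbp2, the corepressors that Zeb proteins bind, had changes of -0.18 (SE 0.0545, adjusted p = 0.0237) and -0.20 (SE 0.0729, adjusted p = 0.0513). At the upper end, the Hippo coactivator Wwtr1 (TAZ) rose by 1.06, the deacetylase Hdac3 by 0.94 and Rcor3 by 0.74. Lmo4 fell by 0.77, the LIM protein Ajuba by 0.61 and the Polycomb methyltransferase Ezh2 by 0.48.

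Factors that oppose EMT repressors mostly fell, 9 of 13 tested, with 2 rises and a median of -1.70. Some of the falling genes passed the filter through the control vector arrays alone, and 5 falls remained when any 1 of those arrays was left out. The splicing regulator Esrp1 was under the floor on all 3 Zeb1 vector arrays, at 10.88 ± 0.108 in control vector cells (SD, n = 3), a log2 change of -6.43 (adjusted p = 3.09e-09), and was at least 14.4-fold lower. Ehf, an ETS factor also under the floor on all 3 Zeb1 vector arrays, had a change of -3.96 and was at least 2.59-fold lower. Grhl2 (Grainyhead-like 2) fell by 3.43, with 6.60 ± 0.107 in Zeb1 vector cells and 10.02 ± 0.0995 in control vector cells (SD, n = 3 each, adjusted p = 4.41e-08). It was at least 7.95-fold lower, and its other tested probe set was called higher, with a change of 0.73. Foxa2 and Tfap2a rose, by 1.35 and 0.84.

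Genes that these repressors are known to silence fell in 21 of 24 tested cases, with a median log2 change of -4.07. Here too some falling genes passed the filter through the control vector arrays alone. With any 1 of those arrays left out, 11 falls remained. Cdh1 had 10.17 ± 0.145 in Zeb1 vector cells and 14.18 ± 0.027 in control vector cells (SD, n = 3 each), a change of -4.01 (SE 0.0767, adjusted p = 9.14e-10). Cldn3, Cldn4 and Rab25 had changes of -8.32, -8.03 and -8.03, with 2 Zeb1 vector arrays at the floor for Cldn3 and 2 for Rab25. All 3 genes lay below the background mark on all 3 Zeb1 vector arrays, and they were at least 66.5-fold, 74.5-fold and 49.2-fold lower. The desmosomal cadherin Dsc2 rose, by 1.12 (adjusted p = 0.00165). This list was chosen with its result on these arrays known, so its direction is not independent evidence.

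Regulators of Snail and Twist protein turnover divided, with 5 of 21 tested genes up and 7 down (median -0.05). Prkd1, a kinase that phosphorylates Snai1, had the largest change in the list, a log2 change of -4.52 on floored signals (4.47 ± 0.034 in Zeb1 vector cells and 8.99 ± 0.107 in control vector cells, SD, n = 3 each, adjusted p = 1.36e-07). With 2 Zeb1 vector arrays at the floor it was at least 3.87-fold lower, and its other tested probe set had a change of -3.34. Casein kinase 1 epsilon, Csnk1e, fell by 0.89 and the F-box protein Fbxl5 by 0.67. Lats2, a kinase of the Hippo pathway, rose by 1.23 (its other probe sets ranged from -0.30 to 0.82), and the phosphatases Ctdsp1 and Ctdsp2 by 1.01 and 0.81. Arrays of this kind measure RNA, so protein levels of the family are not known from these data.

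**Figure D4:**
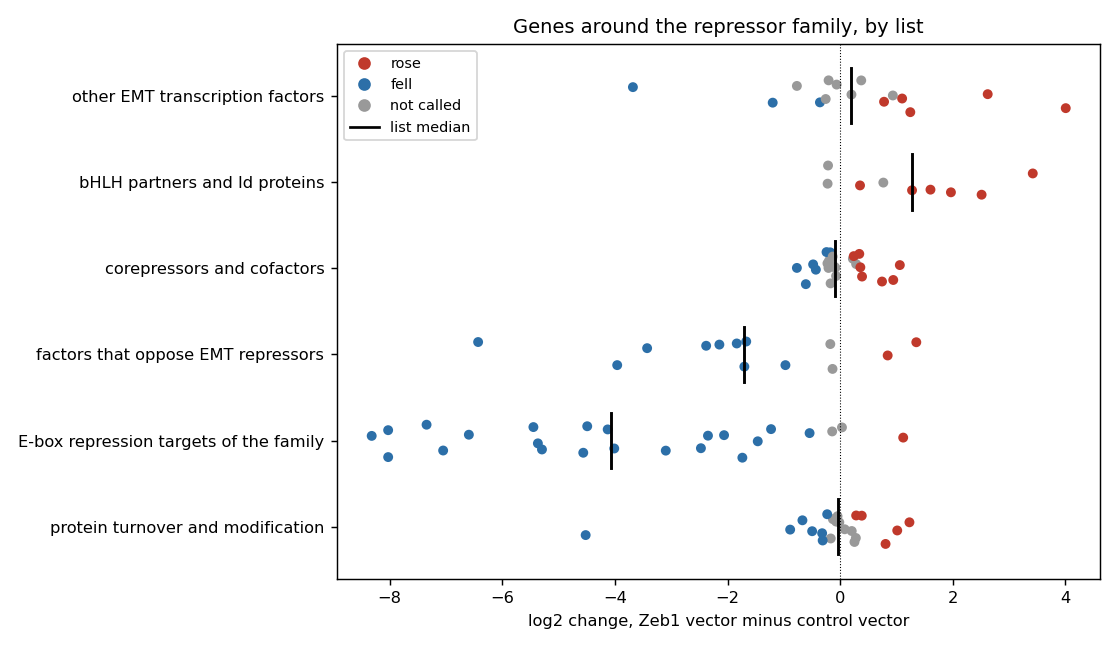
Log2 change, Zeb1 vector minus control vector (horizontal axis), of each tested gene in the 6 lists (rows; vertical scatter within a row carries no value), coloured by call, with the list median as a bar. Medians lie at -4.07 for the repressed genes, -1.70 for the opposing factors and 1.28 for bHLH partners and Id proteins, and between -0.10 and 0.20 for the other 3 lists.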

How the data were processed

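RNA from 3 Zeb1 vector and 3 control vector cultures of 393P cells was hybridised to Affymetrix expression arrays as biotin-labelled cRNA, per the labels' protocols. The deposited table holds log2 signals of 45101 probe sets, and the submitters' processing notes name MAS5, with no version given in the sources used here. On the linear scale 100% of them lay within 0.01 steps of a multiple of 0.1. The table lacked 2 values, on control vector replicate 2 and in no probe set of the family. Genes were named through the platform annotation, where 34945 probe sets had 1 symbol and 932 several.

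Signals were raised to the pooled 25th percentile, probe sets reaching their array's median on at least 3 of 6 arrays were kept (20594), and groups were compared with limma 3.58.1 in R 4.3.3 (intensity trend, two-sided, Benjamini-Hochberg over all kept probe sets, threshold 0.05). The median SE was 0.147, and precision is limited by having 6 arrays. On simulated data the fit recovered 59.2% of log2 changes of 1 and 85% of changes of 2, among changed probe sets that passed the filter. There were 6 false calls among 19857 tested probe sets. A probe set that was not called can therefore still have changed. The simulation changed far fewer probe sets than were called on the real arrays. Its recovered shares need not hold for the real fit. Python 3.11.15 with pandas 2.3.3 made the summaries.

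Members and lists were chosen with earlier results of these data known. Named were every probe set of the family, up to 3 called rises and 3 called falls of largest size per list, Cdh1, Ctbp1 and Ctbp2, and the 3 genes nearest to each member. Alternatives were other floors and filters, quantile normalization, no trend, a replicate block and each array left out. Same-numbered arrays deviated together with r = 0.02, 0.01 and -0.04, so no shared deviation by number was seen. The main fit used no pairing.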

Additional observations from a re-analysis of the deposited data

How the results depend on the processing

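Among the 16 tested probe sets of the family, the calls of Zeb1 1418926_at, Snai2, Snai3 1456796_at, Twist2, Prrx1 and the 3 rising Zeb2 probe sets were kept under every alternative that left them in the test. The stricter filter left 2 risers, both of Snai2, since it needs the array median on all 6 arrays. Leaving out 1 array gave 4 to 13 risers and 1 fall each time. The count was 4 without Zeb1 vector replicate 1, 2 or 3, because 3 arrays must still pass and only 2 Zeb1 vector arrays remain. With the filter lowered to 2 arrays, an alternative chosen after seeing the data, it was 13 for each array left out, and falls numbered 2 without Zeb1 vector replicate 1, 2 or 3 or control vector replicate 3, where Snai3 1421560_at joined Snai3 1456796_at. With no filter 12 rose and 2 fell, and under quantile normalization 13 rose and 2 fell. The lowest and highest changes over the alternatives were 3.37 and 5.79 for Zeb1 1418926_at, 2.58 and 4.03 for Twist2 and -1.71 and -1.55 for Snai3 1456796_at. With 1 array left out the Snai1 change ranged from -0.0139 without control vector replicate 2 to 0.267 without Zeb1 vector replicate 1. It was -0.00758 without Zeb1 vector replicate 2, also with the lowered filter, and was called under none of its alternatives.

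In the lists, the stricter filter left 3 rises among other EMT factors, 4 falls among opposing factors and 10 among repressed genes, and with no filter 1 opposing factor rose. With 1 array left out there were 3 to 7 rises among other EMT factors, 5 to 9 falls among opposing factors, 11 to 21 falls among repressed genes and 0 to 1 falls among bHLH partners. The opposing and repressed counts were 5 and 11 without control vector replicate 1, 2 or 3, through the same filter.

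A block for the replicate number gave 13 risers and 1 fall in the family, 4957 higher and 4420 lower probe sets over all, and changed no call of a member. Probe sets near background, below the mark on all 6 arrays, can hold changes that these signals cannot show.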
